A study of Fukomys damarensis and Heterocephalus glaber and Mus musculus with 160 samples.

Results

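Peak lists of 3 histone marks were compared with one another within the mouse heart. All histone lists whose titles name mouse and heart were taken: 6 of H3K4me3, 6 of H3K27ac and 5 of H3K4me1, together 17 of the 99 histone peak lists of the series. The series profiled regulatory chromatin in liver and heart of 4 rodent species by chromatin immunoprecipitation and sequencing (ChIP-seq), in which an antibody pulls down crosslinked chromatin and places enriched over an untreated input library are called as peaks. All 17 lists came from wild-type adult male C57BL/6J mice aged 2 months. The libraries came from 12 animals or pools. One of them, called the pool here, joins 3 animals in each of its libraries and counted as 1 replicate. The 12 mouse liver lists used for comparison, 4 per mark, came from mice of the same strain, genotype, sex and age. Whole hearts were diced and freed of clots, so each list averages cardiac muscle cells and the other cells of the organ. A mark on few cells and a weak mark on many cells cannot be told apart, nor can marks on the same or on different cells.

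The marks are modifications of the tail of histone H3. H3K4me3, trimethylation of lysine 4, sits around the starts of active or poised genes and is placed by SET1 and MLL complexes. H3K27ac, acetylation of lysine 27 by the acetyltransferases CBP and p300, accompanies active promoters and active enhancers. H3K4me1, monomethylation of lysine 4, is placed largely by MLL3 and MLL4 at enhancers, whether active or only primed, and on the borders of promoters where trimethylation gives way. In heart muscle, maps of H3K27ac and H3K4me1 are widely used to find enhancers.

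The lists held 1014943 peaks, with 18135 to 32785 per H3K4me3 library, 57663 to 109724 per H3K27ac library and 20521 to 129914 per H3K4me1 library. The lists give no read numbers, so depth is unknown. The file name of the longest H3K4me1 list, 33017, carries a tag that no label explains and no other mouse heart list has, and whether it rests on another depth is unknown. The H3K4me1 list of the pool stood apart from the other H3K4me1 lists, with 20521 peaks on 9.28 Mb against 70880 to 129914 peaks on 49.4 to 109.7 Mb, so results that rest on it are also given without it. The H3K4me3 list of animal 6842 had the lowest median width, 334 bases against 769 to 1138 in the other H3K4me3 lists, and 69.0% of its peaks reached a −log10 q of 4 against 88.7% to 96.4%. The 17 lists were called against 5 input libraries, each shared between marks, and only 4 lists used an input of the same animal or pool. No mouse gene annotation was used here, so peaks are described by position and marks and not by gene, and the tissue label was not checked against heart genes.

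H3K4me3 formed fewer regions than either other mark. Its lists held 24890.5 ± 6489.6 peaks (SD, n = 6), against 77758 ± 23334 for H3K27ac (n = 6) and 79810.2 ± 41279.5 for H3K4me1 (n = 5). On the log2 scale H3K4me3 was lower than H3K27ac by −1.63 (two-sided exact permutation test, adjusted p = 0.0130), and no library of one mark overlapped the range of the other. The difference from H3K4me1 was −1.49 (adjusted exact permutation p = 0.0455). The ranges overlapped through the pool, and without that library the difference was −1.92 (adjusted exact permutation p = 0.0143). Leaving out any of the other 4 H3K4me1 libraries, or any H3K4me3 library except that of animal 6842, gave an adjusted exact permutation p between 0.0714 and 0.0952. H3K27ac and H3K4me1 differed by 0.15, within the spread of their libraries (adjusted exact permutation p = 0.900). Within inputs the H3K4me3 differences were −1.52 and −1.02, with adjusted exact permutation p of 0.125 and 0.281.

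Median peak widths were 827 ± 271 bases for H3K4me3 (SD, n = 6), 502 ± 113 for H3K27ac (n = 6) and 508 ± 73.4 for H3K4me1 (n = 5). H3K4me3 exceeded H3K27ac by 0.66 on the log2 scale (adjusted exact permutation p = 0.0996) and H3K4me1 by 0.62 (adjusted exact permutation p = 0.110), so neither difference passed. Without the H3K4me3 list of animal 6842 both did, at 0.90 and 0.87 (adjusted exact permutation p = 0.0130 and 0.0159). When every list was reduced to its 18135 peaks of highest −log10 p, the log2 difference of H3K4me3 from H3K27ac was −0.22 and did not pass (adjusted exact permutation p = 0.368). That cut kept the whole of the shortest H3K4me3 list but only a part of each H3K27ac list, and the effect of this selection on width was not tested. Within inputs the width differences were 0.60 and 0.93 (adjusted exact permutation p = 0.208 and 0.188).

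Most H3K4me3 peaks also carried H3K27ac. Peaks were counted as overlapped when the shared bases reached 50% of the shorter peak, and all 192 pairs of libraries of different marks were used. Averaged over the 6 H3K27ac lists, the share of H3K4me3 peaks overlapped by H3K27ac was 86.1% in animal 6839, 84.8% in 33016, 83.1% in 17_36584, 71.3% in the pool, 58.5% in 6837 and 52.2% in 6842. The 3 highest libraries held 18135 to 19954 peaks, and the other 3 held 29226 to 32785. The part of list length in this spread was not tested. For scale, the share of H3K4me3 peaks found in another H3K4me3 library was 71.0% on average over 30 pairs, from 45.6% to 98.0%.

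H3K4me1 met far fewer H3K4me3 peaks. Each H3K27ac list overlapped 68.6% to 77.7% of H3K4me3 peaks, and each H3K4me1 list 9.91% to 48.8%. The means were 72.7 ± 3.66% (SD, n = 6 lists) and 29.4 ± 14.6% (n = 5), a difference of 43.3 percentage points (two-sided exact permutation test over the overlapping lists, adjusted p = 0.00649). No H3K4me1 list reached the lowest H3K27ac list. The share rose with the length of the H3K4me1 list: 9.91% for the pool with 20521 peaks, 24.2% for 17_3501 with 70880, 26.5% for 17_3500 with 72337, 37.4% for 17_3498 with 105399 and 48.8% for 33017 with 129914. Without the pool the difference was 38.4 points (adjusted exact permutation p = 0.00952), and with each list reduced to 18135 peaks it was 51.9. With a touch of 1 base counted, it was 27.4 points (adjusted exact permutation p = 0.0162). Within inputs it was 49.4 points (adjusted exact permutation p = 0.0938). Single pairs were closer with a touch of 1 base counted. The H3K4me1 list 33017 then touched 84.6% of the H3K4me3 peaks of 17_36584, against 80.6% to 89.1% for the H3K27ac lists. Of the H3K4me3 peaks of 33016 it touched 81.3%, against 81.3% to 90.2%.

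**Figure D1:**
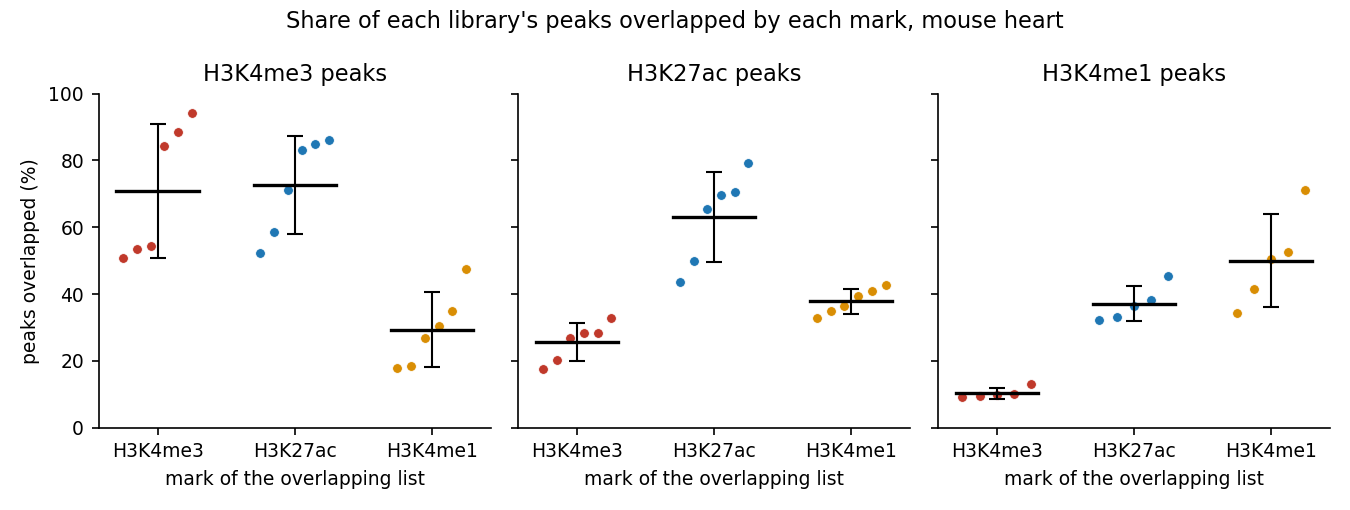
Share of each library's peaks overlapped by lists of each mark, by at least 50% of the shorter peak; each point is 1 library of the mark named above the panel, averaged over the lists of the mark on the horizontal axis (never itself) and sorted by value, and lines give the mean ± SD. H3K4me3 peaks lie between 52.2% and 86.1% for H3K27ac and between 17.9% and 47.5% for H3K4me1.

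H3K27ac peaks met both other marks. H3K4me3 lists overlapped 25.7 ± 4.26% of them (SD, n = 6 lists) and H3K4me1 lists 37.9 ± 18.6% (n = 5), a difference of −12.1 points that did not pass (adjusted exact permutation p = 0.169). Without the pool's H3K4me1 list it was −19.0 points and passed (adjusted exact permutation p = 0.00952). With each list reduced to 18135 peaks the difference was 44.1 points in favour of H3K4me3 (adjusted exact permutation p = 0.00325). That cut also shortened the overlapping lists, those of H3K4me1 from as many as 129914 peaks and those of H3K4me3 from at most 32785. It therefore does not speak of the strongest H3K27ac peaks only. Within inputs the difference was −2.53 (adjusted exact permutation p = 0.813).

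H3K4me1 peaks met H3K27ac more often than H3K4me3. H3K27ac lists overlapped 37.1 ± 8.91% of them (SD, n = 6) and H3K4me3 lists 10.3 ± 6.00% (n = 6), a difference of −26.8 points (H3K4me3 minus H3K27ac, adjusted exact permutation p = 0.00649) with no overlap between the lists' values. By library, the share of H3K4me1 peaks under H3K27ac was 33.2% in 17_3498, 38.2% in 17_3500, 36.5% in 17_3501, 32.2% in 33017 and 45.4% in the pool. The short list of the pool was the highest of the 5. With each list reduced to 18135 peaks the difference was −10.8 points (adjusted exact permutation p = 0.0104). In the 4 animals or pools with both an H3K4me3 and an H3K27ac library it was −22.1 points (exact sign-flip p = 0.125, the smallest 4 pairs allow), and within inputs −25.2 (adjusted exact permutation p = 0.0938).

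Read the other way, from the overlapped libraries, H3K27ac lay over 72.7 ± 14.6% of H3K4me3 peaks (SD, n = 6) and over 37.1 ± 5.24% of H3K4me1 peaks (n = 5), a difference of 35.6 points (adjusted exact permutation p = 0.00649). H3K4me3 lay over 25.7 ± 5.72% of H3K27ac peaks (n = 6) and 10.3 ± 1.58% of H3K4me1 peaks (n = 5), a difference of 15.4 points (adjusted exact permutation p = 0.00649) that was 52.5 with lists of equal length and 10.00 with a touch of 1 base counted. H3K4me1 lay over 29.4 ± 11.1% of H3K4me3 peaks and 37.9 ± 3.76% of H3K27ac peaks (n = 6 each), a difference of −8.50 that did not pass (adjusted exact permutation p = 0.140). That last comparison passed without the H3K4me3 list of the pool, at −12.1 (adjusted exact permutation p = 0.00952). It also passed with lists of equal length (−8.43, adjusted exact permutation p = 0.0152), and with windows of 1000 bases or the summit required inside (−10.8 and −15.0, adjusted exact permutation p = 0.00433 each). With a touch of 1 base counted it was −0.356 (adjusted exact permutation p = 0.946). Within inputs the 3 differences were 32.7, 15.0 and −8.38, with adjusted exact permutation p of 0.0938, 0.0938 and 0.325.

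H3K4me1 coverage was highest beside H3K4me3 summits rather than on them. The summit is the position of highest enrichment given for each peak. At H3K4me3 summits 15.1 ± 10.3% of positions lay inside an H3K4me1 peak (SD, n = 5 lists). The coverage rose with distance to 23.8 ± 14.0% at 700 to 800 bases. It then fell to 12.7 ± 7.13% at 2000 bases and 8.40 ± 4.65% at 5000, both below the mean at the summit. Each H3K4me1 list showed the same shape. The coverage went from 19.4% at the summit to a highest value of 28.9% for 17_3498, from 11.7% to 21.8% for 17_3500, from 10.2% to 19.9% for 17_3501, from 30.5% to 43.6% for 33017 and from 3.45% to 5.12% for the pool. H3K27ac was highest on the H3K4me3 summit itself, at 70.7 ± 3.85% (n = 6), and had fallen to 29.7 ± 5.18% at 1000 bases. Around H3K27ac summits, H3K4me1 coverage was highest at the summit, 30.0 ± 17.1% (n = 5), with no dip. This shape is a description without a test.

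**Figure D2:**
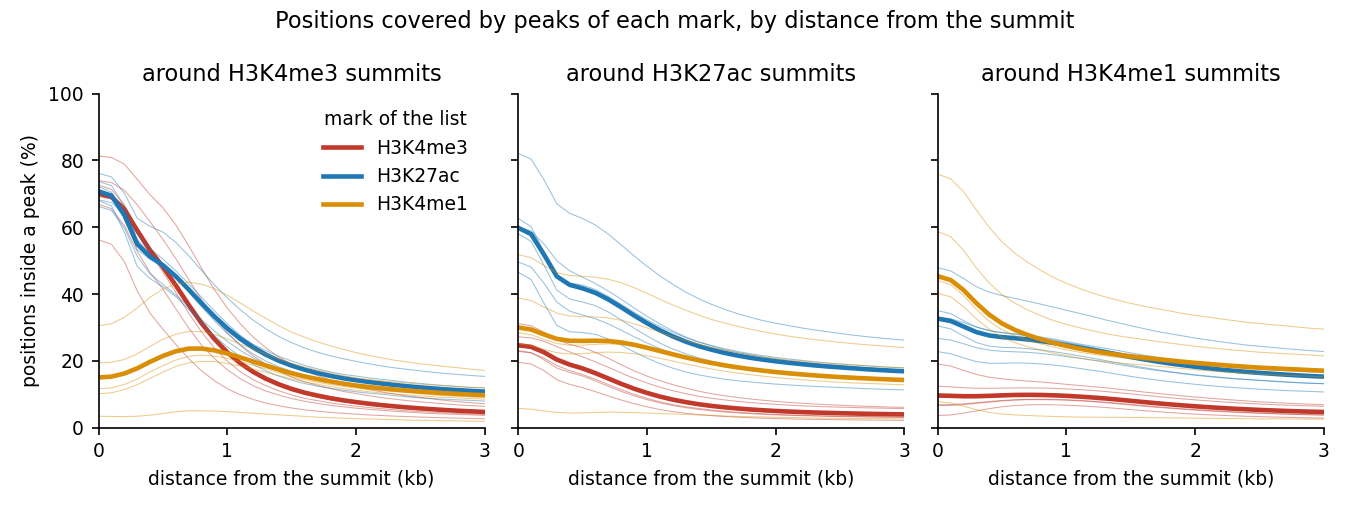
Share of positions inside a peak of each mark, by distance from the summits of the mark named above each panel; thin lines are single lists averaged over the libraries of that mark and thick lines their means. H3K4me1 coverage around H3K4me3 summits rises from 15.1% to 23.8% at 700 to 800 bases, while H3K27ac falls from 70.7%.

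The sides of the summits were then read with a window of 2000 bases, chosen after the coverage curves were seen. Besides the H3K4me3 summits that lay inside an H3K4me1 peak, 19.0 ± 11.4% of all H3K4me3 summits had an H3K4me1 peak on both sides (SD, n = 5 lists), 28.5 ± 7.38% on 1 side and 37.5 ± 21.8% on neither. The share on neither side was 72.5% for the pool's list and 15.5% to 38.9% for the other 4. H3K27ac summits lay inside an H3K4me1 peak more often than H3K4me3 summits in each of the 5 H3K4me1 lists, from 5.81% against 3.45% in the pool to 51.8% against 30.5% in 33017. As shares of all summits, summits with H3K4me1 on both sides were more frequent for H3K4me3 than for H3K27ac in 4 of the 5 lists. They ranged from 15.6% against 13.2% in 17_3501 to 33.9% against 18.4% in 33017, and the pool gave 3.15% against 3.35%. Summits inside an H3K4me1 peak were not counted in this class, which left a smaller share of H3K27ac summits to count. For the 17_3501 list, 10.2% of H3K4me3 summits and 25.2% of H3K27ac summits lay inside. The contrast therefore cannot be told apart from the inside shares, and shares among the summits outside H3K4me1 peaks were not tested.

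Distances between summits were then read in bases. Among overlapping peaks, the median distance from an H3K4me3 summit was 53.1 bases to the summit of another H3K4me3 library, 88.5 to H3K27ac and 463 to H3K4me1 (means over 30, 36 and 30 pairs). The distance within a mark shows how closely 2 libraries place the same summit. On the log2 scale, H3K27ac summits lay 0.72 farther than those of a second H3K4me3 list (two-sided exact permutation test, adjusted p = 0.00557) and H3K4me1 summits 3.14 farther (adjusted exact permutation p = 0.00390). H3K4me1 lists ranged from 433 to 494 bases and H3K27ac lists from 65.3 to 118.0, with no overlap (difference −2.42, adjusted exact permutation p = 0.00390). Of H3K4me3 peaks overlapped by H3K4me1, 13.8% had summits within 100 bases of each other, against 54.3% for H3K27ac and 70.3% for H3K4me3.

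From H3K27ac summits, the distance was 103.9 bases to H3K4me3 and 117.6 to another H3K27ac library, a log2 difference of −0.18 that did not pass (adjusted exact permutation p = 0.368). H3K4me1 was farther at 274.4 bases (log2 difference 1.25 from H3K27ac and −1.43 for H3K4me3 against H3K4me1, both adjusted exact permutation p = 0.00390). From H3K4me1 summits the order was H3K4me1 at 208.5 bases, H3K27ac at 281 and H3K4me3 at 490.7. The step from H3K4me1 to H3K27ac was 0.41 (adjusted exact permutation p = 0.0122) and lost its call without library 17_3498 (0.41, adjusted exact permutation p = 0.0536). The step from H3K27ac to H3K4me3 was 0.81 (adjusted exact permutation p = 0.00557) and turned to −0.26 with lists of equal length (adjusted exact permutation p = 0.122). Within inputs the 8 differences that passed ran in the same direction, each at adjusted exact permutation p = 0.0703.

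**Figure D3:**
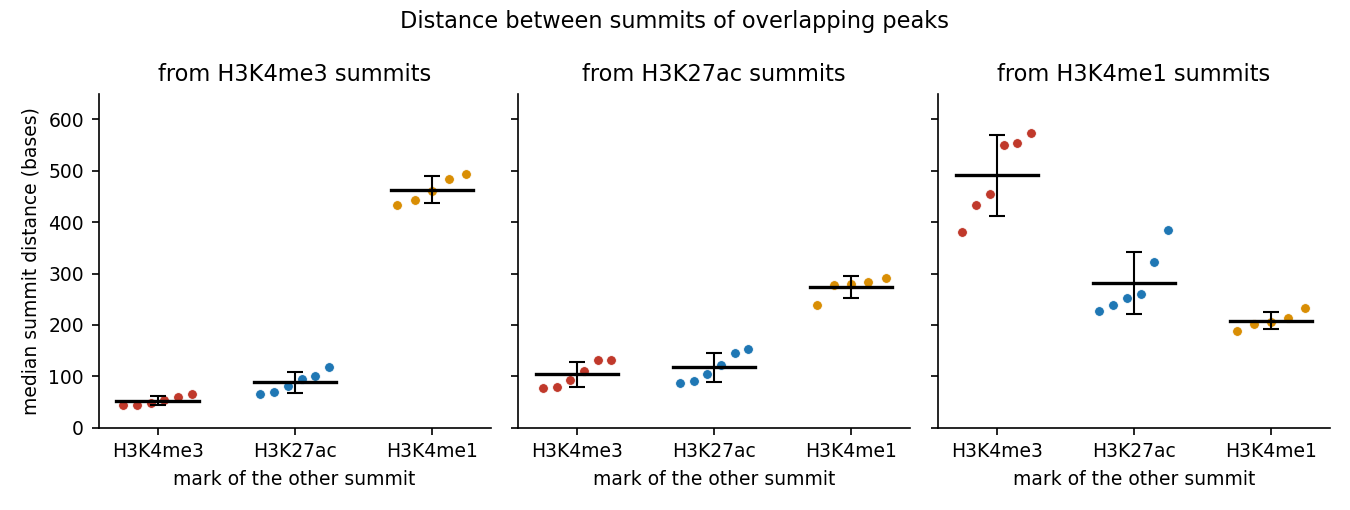
Median distance in bases between summits of overlapping peaks, from summits of the mark above each panel to those of the mark on the horizontal axis; each point is 1 list of the latter mark, averaged over the libraries of the former and sorted by value, with mean ± SD. From H3K4me3 summits, H3K4me1 lists sit between 433 and 494 bases and H3K27ac lists between 65.3 and 118.0.

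Peaks were next grouped by how many marks they carried. A mark counted as present where a peak overlapped a region found in at least 2 libraries of that mark. There were 21193 such regions for H3K4me3, 86543 for H3K27ac and 104499 for H3K4me1. Of H3K4me3 peaks, 44.6 ± 17.9% carried H3K27ac without H3K4me1, 33.6 ± 12.5% all 3 marks, 6.01 ± 2.65% H3K4me1 without H3K27ac and 15.8 ± 15.1% no other mark (SD, n = 6). The peaks of H3K4me3 alone were 31.2% of the list in animal 6837 and 38.4% in 6842, against 3.96% to 10.1% in the other 4. Only 5.83% of them in 6837 and 9.09% in 6842 were found in another H3K4me3 library. In the other 4 lists this share was 28.5% to 97.6%. Of H3K27ac peaks, 40.4 ± 3.10% carried H3K4me1 only, a pattern widely used to mark active enhancers, 15.2 ± 4.50% H3K4me3 only, 12.2 ± 2.21% all 3 and 32.2 ± 8.58% neither (n = 6). Of H3K4me1 peaks, 48.5 ± 7.43% stood alone, a pattern widely used to mark primed enhancers, 38.7 ± 5.74% carried H3K27ac only, 9.06 ± 1.301% all 3 and 3.73 ± 0.810% H3K4me3 only (n = 5).

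H3K27ac and H3K4me3 peaks with another mark ranked higher in their own list than peaks alone. The fold enrichment is the authors' peak caller's own value for each peak, so it was turned into a percentile rank within its list. For H3K27ac the median rank was 34.0 ± 1.95 for peaks alone, 55.9 ± 3.22 with 1 other mark and 82.9 ± 4.46 with all 3 (SD, n = 6 libraries). The lowest, median and highest library were 31.8, 33.6 and 37.5 for peaks alone and 76.0, 82.3 and 89.2 for all 3, so the groups did not overlap. The rise from 1 mark to 3 was 48.9 ± 3.91 percentile points and from 1 mark to 2 it was 21.9 ± 2.39, upwards in 6 of 6 libraries (two-sided exact sign-flip test, adjusted p = 0.0469 each). With H3K4me1 only the median rank was 47.4 ± 4.76, and with H3K4me3 only it was 81.1 ± 4.23.

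For H3K4me3 the median rank was 19.1 ± 7.63 for peaks alone, 57.1 ± 8.96 with 1 other mark and 56.4 ± 11.1 with all 3 (SD, n = 6). The rises over peaks alone were 38.0 ± 10.1 for 2 marks and 37.3 ± 5.86 for 3, in 6 of 6 libraries (exact sign-flip test, adjusted p = 0.0469 each). From 2 marks to 3 the rank was lower in 33016 (54.8 to 46.4), 6839 (56.7 to 41.0) and 6842 (70.03 to 67.5) and higher in the other 3. H3K4me3 peaks with H3K27ac only had a median rank of 61.9 ± 8.45 and those with H3K4me1 only 27.4 ± 10.97. For H3K4me1 the ranks moved less, from 44.3 ± 2.48 alone to 57.0 ± 4.22 and 58.4 ± 6.11 (n = 5). Its rises of 12.7 ± 6.67 and 14.1 ± 8.24 points were seen in 5 of 5 libraries (exact sign-flip p = 0.0625, the smallest that 5 libraries allow).

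Width moved with the number of marks, and its part in the ranks was not tested. From 1 mark to 3 the median width went from 345 ± 60.0 to 1250.8 ± 270.1 bases for H3K27ac and from 316 ± 122 to 1133.7 ± 263 for H3K4me3, which is 3.60 and 3.69 times (exact sign-flip test, adjusted p = 0.0469 each, 6 of 6 libraries). For H3K4me1 it was 1.31 times, from 438 ± 48.7 to 582 ± 126 bases (exact sign-flip p = 0.0625). Peak width also enters the overlap rule that assigned the marks, so these tests cannot separate width from that rule. With marks assigned only where they covered the summit, the log2 width differences fell from 1.85 to 0.88 for H3K27ac and from 1.88 to 0.65 for H3K4me3. The rank differences between 3 marks and 1 then were 30.0 and 11.8 points. With a touch of 1 base counted, the rise of H3K4me3 ranks from 1 mark to 2 was 21.3 points. Leaving out any H3K4me3 or H3K27ac library kept the direction of each rank and width difference and gave an adjusted exact sign-flip p of 0.0625.

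**Figure D4:**
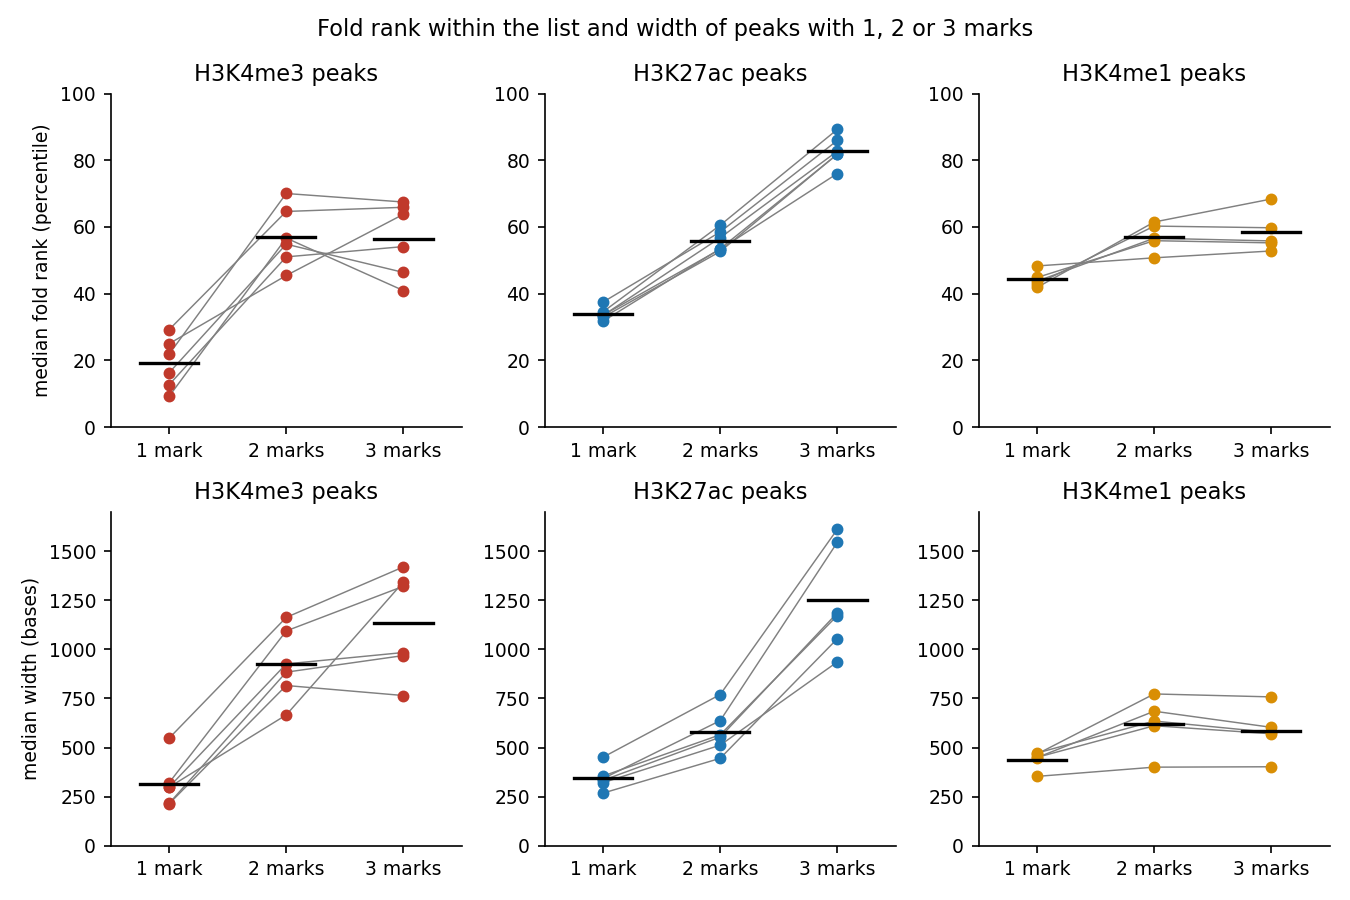
Median percentile rank of fold within the list (upper row) and median width in bases (lower row) of peaks with their own mark alone, with 1 other mark and with all 3; grey lines join the classes of 1 library and black bars are means. H3K27ac ranks climb from between 31.8 and 37.5 to between 76.0 and 89.2, while the mean H3K4me3 rank is 57.1 with 1 other mark and 56.4 with all 3.

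Each list was then split by fold rank into 10 classes. Ties in fold made the classes unequal, most of all in the H3K4me3 list of animal 6842, where they held 2100 to 4300 peaks. On H3K27ac peaks the H3K4me3 share rose mostly in the strongest classes. H3K4me3 overlapped 10.7 ± 4.04% of the weakest class of H3K27ac peaks, 13.4 ± 4.47% of class 5, 34.6 ± 10.9% of class 8, 57.1 ± 12.7% of class 9 and 87.7 ± 6.54% of the strongest (SD, n = 6). The H3K4me1 share was 49.6 ± 9.03% in the weakest class, 45.7 ± 8.88% in class 2 and 61.1 ± 4.74% in class 8. It was 59.4 ± 6.68% in class 9 and 53.2 ± 10.7% in the strongest. By these means the H3K4me3 share exceeded the H3K4me1 share only in the strongest class. H3K27ac peaks alone shrank from 44.5 ± 11.04% of the weakest class to 0.912 ± 0.681% of the strongest. On H3K4me3 peaks the H3K27ac share went from 51.1 ± 25.4% in the weakest class through 74.0 ± 24.2% in class 5 to 99.5 ± 0.631% in class 8. In the strongest class of H3K4me3 peaks, at least 99.97% carried H3K27ac in each of the 6 libraries, while the share with H3K4me1 ran from 11.1% to 76.1%. For H3K4me1 peaks the share with H3K27ac went from 45.4 ± 10.2% of the weakest class to 66.7 ± 2.16% of the strongest (n = 5).

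Classes differed in how well libraries of the same mark found them again. Of H3K27ac peaks with all 3 marks, 78.6 ± 5.42% were met by each of the other 5 H3K27ac libraries, and of those with H3K4me3 only, 76.8 ± 6.11% (SD, n = 6). The share was 34.3 ± 8.52% for those with H3K4me1 only and 9.90 ± 5.39% for H3K27ac alone. H3K4me3 peaks alone were met by all other H3K4me3 libraries in 11.5 ± 11.1% of cases, against 76.3 ± 14.6% of those with H3K27ac only. The values of H3K27ac alone, 3.20% to 18.6%, lay below those of each other H3K27ac class. These are descriptions, since rank, width and number of marks moved together in them.

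The gap to H3K4me3 was read for peaks without it. These classes were defined by the lack of H3K4me3, and the gap of random positions was not computed. The median gap from a summit to the nearest H3K4me3 region was 16965.5 ± 1773 bases for H3K27ac peaks with H3K4me1 only and 23655 ± 3107 for H3K27ac alone (SD, n = 6). More than 10 kb lay between them and H3K4me3 in 63.2 ± 2.71% and 68.4 ± 2.82% of cases. H3K4me1 peaks with H3K27ac only lay 13954 ± 2773 bases away and H3K4me1 alone 15223 ± 4772 (n = 5). The H3K4me1 list of the pool was nearest in both classes, at 9251 and 7769 bases. More than 10 kb lay between H3K4me1 peaks and H3K4me3 in 57.1 ± 5.11% with H3K27ac only and 58.5 ± 8.11% alone. In the pool's list these shares were 48.2% and 45.1%.

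Heart H3K27ac and H3K4me1 peaks that carried H3K4me3 were found in liver in larger shares than those without it. A region of the same mark found in at least 2 liver libraries overlapped 77.5 ± 2.83% of heart H3K27ac peaks with H3K4me3 only and 74.8 ± 2.98% of those with all 3 marks, against 32.3 ± 3.29% with H3K4me1 only and 15.6 ± 2.23% of H3K27ac alone (SD, n = 6). The ranges of the first pair, 71.3% to 80.6%, did not meet those of the second, 12.5% to 36.4%. Heart H3K4me1 peaks gave 85.1 ± 3.52% with H3K4me3 only and 79.8 ± 3.12% with all 3, against 39.6 ± 6.96% with H3K27ac only and 30.9 ± 9.36% alone (n = 5). Heart H3K4me3 peaks themselves were split by H3K27ac. They gave 79.1 ± 12.7% with H3K27ac only and 75.6 ± 7.93% with all 3, against 40.6 ± 12.5% with H3K4me1 only and 22.7 ± 14.8% alone (n = 6), the last from 3.53% to 46.3%. Over all peaks the shares were 39.0 ± 6.38% for H3K27ac, 40.5 ± 8.80% for H3K4me1 and 65.9 ± 16.5% for H3K4me3. For H3K27ac and H3K4me3, the classes with low liver shares were also narrower and less often met by every other heart library. The part of width and of this repeatability in the liver shares was not tested.

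Single regions show the classes in GRCm38 coordinates. Each had the highest mean fold rank of its combination, or the next highest where a second is given, among regions found in every library of the marks present and touched by none of the marks absent. There were 716 such regions with all 3 marks, 427 with H3K4me3 and H3K27ac, 1483 with H3K27ac and H3K4me1 and 11 with H3K4me3 and H3K4me1. Alone, H3K4me3 gave 17, H3K27ac 311 and H3K4me1 444. The 2 smallest counts are those of H3K4me3 without H3K27ac in any library. With the rule relaxed to the consensus of the marks present, the counts in the same order were 10358, 1671, 29430, 1075, 374, 14125 and 30680. H3K4me3 also had the fewest consensus regions, 21193 against 86543 and 104499, so the counts do not rank the combinations as shares.

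The leading region with all 3 marks was chr4:126253943-126257773, 3831 bases wide. Its H3K4me3 folds had a lowest, median and highest library of 122, 165 and 250.3, and its lowest rank in any H3K4me3 list was 97.1. The H3K27ac summits lay 14 to 368 bases from the median H3K4me3 summit. The H3K4me1 summits lay 1358, 1547 and 1645 bases to its right in 17_3498, 17_3500 and 33017, and 1888 and 5336 bases to its left in the pool and 17_3501. A second region, chr7:30587536-30590086, had H3K4me1 away from the H3K4me3 summit too, with H3K4me1 summits 1527 to 1558 bases to the right in 3 lists and 861 and 890 to the left in the other 2. All 12 liver libraries had a peak on both regions.

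The leading region with H3K4me3 and H3K27ac but no H3K4me1, chr1:166379227-166380340, was narrower at 1114 bases. Its H3K27ac summits lay 63 to 98 bases from the median H3K4me3 summit. The leading region with H3K27ac and H3K4me1, chr12:79901299-79908217, was 6919 bases wide and ranked at least 95.4 in each H3K27ac list. Its H3K27ac summits fell within 83 bases of their median, while 4 of the 5 H3K4me1 summits lay 1239 to 1341 bases to the left and that of 17_3500 lay 94 bases to the right. The leading region of H3K27ac alone, chr5:17989013-17990673, had folds of 6.20 to 16.4 and no peak in any liver library. The next region of H3K27ac alone, chr19:10561032-10562918, had a peak in 5 liver libraries. The leading region of H3K4me3 alone, chr2:152847941-152848569, was 629 bases wide, and its rank fell as low as 34.2. The regions on chr1, chr12 and chr2 had a peak in 11, 8 and 7 liver libraries.

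Heart and liver were then compared in the share of each library's peaks overlapped by another mark of the same tissue. H3K4me1 met smaller shares of H3K4me3 and H3K27ac peaks in the heart lists than in the liver lists. H3K4me1 overlapped 29.4 ± 11.1% of heart H3K4me3 peaks (SD, n = 6) and 70.4 ± 2.50% of liver H3K4me3 peaks (n = 4), a difference of −41.0 percentage points (two-sided exact permutation test, adjusted p = 0.0143) with no overlap between tissues. It overlapped 37.9 ± 3.76% of heart H3K27ac peaks and 60.5 ± 0.557% of liver H3K27ac peaks, a difference of −22.6 points (adjusted exact permutation p = 0.0143), again with no overlap. Without the pool's H3K4me1 list the differences were −36.2 and −15.7 points (adjusted exact permutation p = 0.0143 each).

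The first difference was smaller under other settings. It was −24.9 points with peaks replaced by 1000 bases around the summit, −24.6 with the summit required inside, and −14.3 with each list reduced to 17431 peaks (adjusted exact permutation p = 0.0143 in the last). Heart H3K4me3 lists held 24890.5 ± 6489.6 peaks and liver lists 18099 ± 849, and the part of list length was not tested. The H3K4me1 lists held 79810.2 ± 41279.5 peaks in heart and 95664 ± 12396 in liver. Of these peaks, 71.5 ± 4.10% and 87.5 ± 4.05% reached a −log10 q of 4, and the part of this was not tested either. Liver lists were called against inputs of their own, and each liver animal gave all 3 marks against 1 input. In heart only the pool had all 3 marks. Tissue, input and this pairing therefore cannot be told apart.

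H3K4me1 peaks were overlapped by H3K4me3 in 10.3 ± 1.58% of cases in heart (n = 5) and 16.1 ± 0.643% in liver (n = 4), a difference of −5.75 points (adjusted exact permutation p = 0.0317). Leaving out 17_3498, 17_3500, 17_3501 or 33017 gave an adjusted exact permutation p of 0.0571, with differences from −5.69 to −5.45. The difference was −14.2 points with lists of equal length and −2.19 with windows of 1000 bases. H3K4me1 peaks overlapped by H3K27ac differed by −9.01 points and did not pass (adjusted exact permutation p = 0.0595). With lists of equal length the difference was −22.9 and passed (adjusted exact permutation p = 0.0159), as it did with a −log10 q of at least 4 (−10.7) and with the summit required inside (−11.1, adjusted exact permutation p = 0.0476 each). With windows of 1000 bases it was −1.71 (adjusted exact permutation p = 0.505). Between H3K4me3 and H3K27ac neither difference between the tissues passed. H3K27ac overlapped 72.7 ± 14.6% of heart and 83.5 ± 1.03% of liver H3K4me3 peaks (difference −10.8, adjusted exact permutation p = 0.343), and H3K4me3 overlapped 25.7 ± 5.72% and 26.2 ± 0.663% of H3K27ac peaks (difference −0.411, adjusted exact permutation p = 0.924). With lists of equal length these became 3.46 (adjusted exact permutation p = 0.0619) and 7.42 (adjusted exact permutation p = 0.0286).

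**Figure D5:**
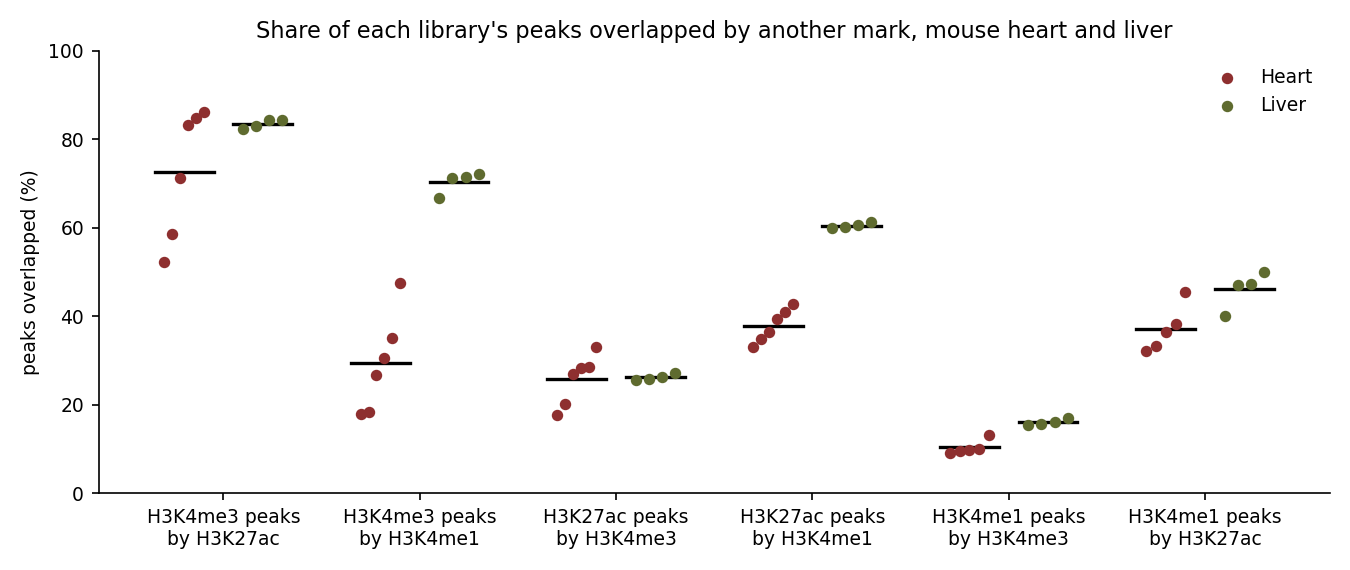
Share of each library's peaks overlapped by another mark of the same tissue, for 6 ordered pairs of marks; each point is 1 library and black bars are means. For H3K4me3 peaks overlapped by H3K4me1, the heart libraries sit between 17.9% and 47.5% and the liver libraries between 66.7% and 72.0%.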

How the data were processed

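The deposited lists are peak tables, 1 per library, called against a named input on the mouse build GRCm38, per the file names; MACS2 is named in the submitters' processing notes. Each deposited peak carries a fold enrichment (a ratio, not logged) and −log10 p and −log10 q values from the caller, the lowest −log10 q being 1.30. The aligner used is not given in the sources used here. Members, gene lists, tests and alternatives were chosen with earlier results of these data known.

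Overlap required 50% of the shorter region. Regions shared by a mark were stretches of at least 100 bases covered in at least 2 libraries. Summit distance was the median, per library pair, between summits of overlapping peaks. The unit of each test was the library. The main tests between marks did not use the pairing of libraries from the same animal or pool. That pairing entered only in the replicate block, which compared marks within the same animal or pool. Two-sided exact permutation tests exchanged mark or tissue labels over libraries, and exact sign-flip tests were used within libraries. Benjamini-Hochberg adjustment ran within families of 6 (number and width), 6 (overlap), 9 (distance), 6 (fold rank), 3 (width by marks) and 6 (heart and liver) tests, at a threshold of 0.05. Same-numbered libraries come from the same animal, per the labels: 4 animals or pools had both H3K4me3 and H3K27ac, and only the pool had all 3. Alternatives were other overlap rules, a −log10 q of at least 4, equal list lengths, the replicate block and leaving out each library. Equal list lengths kept the peaks of highest −log10 p. Further alternatives used only pairs of libraries with different inputs, or exchanged labels only within inputs. For each combination of marks, the 2 regions with the highest mean fold rank were eligible to be named. The list of heart genes and the marks at gene starts were not analysed here. Scripts used Python 3.11.15, NumPy 2.4.6, pandas 2.3.3, SciPy 1.17.1 and Matplotlib 3.10.9, and were tested on simulated data.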

Additional observations from a re-analysis of the deposited data

Results flagged for a closer look

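In 3 of 33 sets of library values examined, the highest or lowest library stood apart from the rest by more than Dixon's 95% limit for its gap, which chance alone reaches in about 1 in 20 sets. The library was the H3K4me1 list of the pool each time. Its median width was 381 bases, against 516 to 569 in the other 4 H3K4me1 lists. H3K27ac summits lay 238 bases from its summits, against 278.0 to 292 for the other 4. The share of its peaks overlapped by H3K4me3 was 13.1%, against 9.12% to 10.1%.

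Heart and liver differed in 3 overlap shares by a test of the difference itself. The share of H3K4me3 peaks overlapped by H3K4me1 was lower in heart by −41.0 percentage points, that of H3K27ac peaks overlapped by H3K4me1 by −22.6 and that of H3K4me1 peaks overlapped by H3K4me3 by −5.75.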

How the results depend on the processing

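Of 17 values of peak number and width recomputed under other settings, 7 kept their direction and their side of the threshold, as did 35 of 44 overlap, 35 of 48 distance, 28 of 30 fold rank, 13 of 15 width by marks and 23 of 30 heart and liver values. The cause of each change below was not tested, except that fits within inputs and fits with the replicate block have fewer libraries to relabel. Read depth and the shared inputs limit each comparison, and the short H3K4me1 list of the pool touches each one with that mark. The planned counts of marks at gene starts, with windows of 500 and 2000 bases and with at least 4 libraries, were not run, as no gene annotation was used.

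With a −log10 q of at least 4, log2 median width differed by 0.035 (H3K27ac minus H3K4me1), 0.68 (H3K4me3 minus H3K27ac) and 0.72 (H3K4me3 minus H3K4me1), log2 peak number by −1.17 (H3K4me3 minus H3K4me1), and heart minus liver shares by 1.98 (H3K27ac by H3K4me3) and −10.7 points (H3K4me1 by H3K27ac). With lists of equal length, the width differences were 0.57 (H3K27ac minus H3K4me1) and −0.22 (H3K4me3 minus H3K27ac). The overlap differences were then 44.1 points (H3K27ac peaks, by H3K4me3 minus by H3K4me1) and −8.43 (under H3K4me1, H3K4me3 minus H3K27ac peaks). The log2 distances were 0.071 (H3K27ac to H3K4me3 against H3K27ac) and −0.26 (H3K4me1 to H3K4me3 against H3K27ac), and heart minus liver shares 7.42 (H3K27ac by H3K4me3), −22.9 (H3K4me1 by H3K27ac) and 3.46 (H3K4me3 by H3K27ac). The share under H3K4me1 differed by −10.8 with windows of 1000 bases and −15.0 with the summit required inside. Heart minus liver was −11.1 for H3K4me1 by H3K27ac with the summit required inside and 0.0838 for H3K27ac by H3K4me3 with 1 base.

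Labels exchanged only within inputs gave 0.079 for width (H3K27ac minus H3K4me1), −1.52 and −1.02 for peak number (H3K4me3 minus H3K27ac and minus H3K4me1), and 49.4, −25.2, 32.7 and 15.0 points for the overlap differences that had passed. For distances this setting was chosen after seeing the data and gave 0.67 (H3K4me3 to H3K27ac against H3K4me3), 3.06 (to H3K4me1 against H3K4me3), −2.46 (to H3K27ac against H3K4me1), 1.23 and −1.26 from H3K27ac summits, and 0.47, 1.37 and 0.84 from H3K4me1 summits. Pairs with different inputs gave 0.33 for H3K4me1 to H3K27ac against H3K4me1. With the replicate block, peak number differed by −1.57 (H3K4me3 minus H3K27ac), H3K4me1 overlap by −22.1 points, and distances by 0.69 (H3K4me3 to H3K27ac against H3K4me3) and 0.90 (H3K4me1 to H3K4me3 against H3K27ac). Only the pool paired all 3 marks, and its values with the replicate block, without a test, were rank rises from 1 mark to 2 of 37.2 (H3K27ac) and 4.91 (H3K4me1), and log2 widths of 2.37 (H3K27ac) and 2.28 (H3K4me3).

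Leaving out each library in turn gave log2 widths of −0.14 to 0.063 (H3K27ac minus H3K4me1), 0.54 to 0.90 (H3K4me3 minus H3K27ac) and 0.51 to 0.87 (H3K4me3 minus H3K4me1), and log2 peak numbers of −0.29 to 0.38 (H3K27ac minus H3K4me1) and −1.92 to −1.25 (H3K4me3 minus H3K4me1). Overlap differences were −19.0 to −6.44 (H3K27ac peaks) and −12.1 to −6.22 (under H3K4me1), and the distance from H3K4me1 to H3K27ac against H3K4me1 was 0.31 to 0.46. Rank rises were 21.1 to 26.2 and 47.8 to 50.7 (H3K27ac, 2 and 3 marks) and 36.0 to 41.5 and 35.7 to 39.5 (H3K4me3), and log2 widths 1.78 to 2.02 (H3K27ac) and 1.83 to 1.99 (H3K4me3). Heart minus liver shares were −1.86 to 1.21 (H3K27ac by H3K4me3), −12.1 to −7.05 (H3K4me1 by H3K27ac) and −7.91 to −4.50 (H3K4me1 by H3K4me3).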
